A study of Homo sapiens with 18 samples.

Results

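The glycosylation and GPI-anchor enzymes are the genes whose symbols name the enzymes and subunits that build, transfer, trim and extend glycans on proteins, make heparan sulfate linkers, or make and attach glycosylphosphatidylinositol (GPI) anchors. They were chosen by a pattern of gene symbols, a rule that uses no measured value itself, and 80 of the 8996 genes in the table belong to them. PIGA, XYLT1, ALG10 and ALG10B were not analysed here. In all, 138 symbols were listed by pathway step, so the steps below cover only their measured genes. These were 10 of 39 listed for chain extension and capping, 9 of 18 for the start of mucin-type chains, and 9 of 17 for trimming and branching. The cells were HEK293T, a human embryonic kidney line of wild-type genotype. They were treated for 3 h with STM2457, an inhibitor of the m6A methyltransferase METTL3, or with its vehicle DMSO, and then given the uridine analogue 4-thiouridine (s4U) at 100 µM. Labelling lasted 0 (no s4U), 90 or 180 min, and each of the 6 groups has 3 samples. In SLAM-seq, s4U that enters new RNA is alkylated and read as a T-to-C conversion, so that new RNA can be told from old. The labels do not say whether the 3 samples of a group came from separate cultures.

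The values are the authors' fitted half-life and synthesis rate, 1 of each per gene and treatment, with no value for a single sample. The spread between replicates and the read depth are therefore unknown, and every difference below is a ratio of 2 fitted values that no test accompanies. Half-lives are given in hours; the file headers name no time unit, and hours are inferred from the largest half-life, 69.3, which equals ln 2 over a decay rate of 0.01. A gene is called longer-lived or shorter-lived where its STM2457 half-life is more than 1.5-fold above or below its DMSO half-life, a log2 ratio beyond 0.58 in either direction. A half-life at 69.3 h is at the ceiling of the fits, and a ratio against a ceiling value does not give the size of the difference.

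N-linked glycosylation begins with a sugar tree that ALG enzymes assemble on dolichol, a lipid of the endoplasmic reticulum (ER) membrane. The oligosaccharyltransferase (OST) moves this tree onto asparagines of new proteins, and enzymes of the ER and Golgi then trim, branch, extend and cap it. GPI anchors are built on phosphatidylinositol in the same membrane by PIG enzymes and are joined to the ends of proteins by a transamidase. O-linked glycans start with a single sugar on serine or threonine, which may be GalNAc in mucin-type chains, xylose in proteoglycans, fucose or glucose on EGF repeats, or GlcNAc on proteins of the nucleus and cytosol.

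m6A, the methyl mark that METTL3 writes, lies mostly in DRACH motifs (D is A, G or T, R is A or G, H is A, C or T), and less near splice junctions, where exon junction complexes limit methylation. A coding motif at least 100 nt from any exon junction is called far here. Examples of coding GGACT motifs of that kind are shown for 4 of the members with the most far DRACH motifs. The motif count, not the response, set the choice. MGAT2, ALG2 and GALNT4 were longer-lived in STM2457 and PIGM was shorter-lived. The windows of 25 nt are on GRCh38, read 5′ to 3′ on the strand of the mRNA, with the motif in capitals.
MGAT2, chr14:49621663-49621687, plus strand: gactgctgctGGACTcacttcgaaa
GALNT4, chr12:89524522-89524546, minus strand: gcggtgaggtGGACTtgggcaggca
GALNT4, chr12:89523602-89523626, minus strand: catggctggaGGACTgtttgctgtc
GALNT4, chr12:89522903-89522927, minus strand: cccacactcaGGACTgtgtcttagt
ALG2, chr9:99221854-99221878, minus strand: gccgggaacgGGACTcggttcccaa
ALG2, chr9:99221665-99221689, minus strand: gctgtgccggGGACTggctgccgcg
PIGM, chr1:160031288-160031312, minus strand: gcggtaatgcGGACTctattgtcgc
PIGM, chr1:160031023-160031047, minus strand: agcagttgctGGACTcacgtttttt
The MGAT2 motif shown lies 406 nt from the start codon, in a coding region held by 1 exon. The first ALG2 motif lies 28 nt from the start codon and 319 nt from the nearest junction. B3GNT2, which has 27 far DRACH motifs, has 0 far GGACT motifs. The sequences are those of the reference; whether any of these sites was methylated in the cells was not measured in the values used here.

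Members lay on both sides of the limit. Of the 80 members, 28 were longer-lived in STM2457, against a background of 28.5% of all genes, and 22 were shorter-lived, against a background of 24.9%. The members' shares were 35% and 27.5%, and 30 members lay within 1.5-fold. Where each half-life lay in the range of 0.5 to 24 h, 12 of 59 members were longer-lived, or 20.3%, a share equal to the 20.3% of all genes in that range, and 35.6% of members were shorter-lived, beside 27.4% of all genes. Without genes at the ceiling, 24.2% of members were longer-lived, beside 22.8% of all genes. The median log2 half-life ratio was 0.06 over the members and -0.01 over all genes, while the quartiles were wider for the members, at -0.69 and 1.14, than for all genes, at -0.58 and 0.73. The sign of the members' median depends on the genes used, since it was -0.25 between 0.5 and 24 h and -0.17 without genes at the ceiling, beside -0.16 and -0.13 over all genes. The members' median half-life was 6.47 h in STM2457 and 7.35 h in DMSO, and that of all genes was 5.39 h in STM2457 and 5.61 h in DMSO. Across the 80 members, Spearman's rho between the half-lives in STM2457 and DMSO was 0.68, against 0.65 across all genes, a description of fits that share cells and libraries within each treatment.

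The ceiling held 14 members in STM2457, or 17.5%, against a background of 10.9% of all genes, and 2 members in DMSO, or 2.5%, against a background of 2.55%. The 14 were 6 OST subunits, ALG9, the Golgi enzymes MGAT2 and MAN1A2, GALNT13, and the GPI genes PIGF, PIGX, PIGK and PIGU. The 2 members at the ceiling in DMSO were the OST subunits DDOST and RPN1. Closest to the limit of 1.5-fold, FUT11 at 0.64 and GALNT4 at 0.72 lay inside the longer-lived class, and PIGT at 0.54 and ALG11 at 0.55 lay outside it. EXT2 at -0.63 and EXTL3 at -0.67 lay inside the shorter-lived class, and PIGG and FUT8, both at -0.58, lay outside it.

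**Figure D1:**
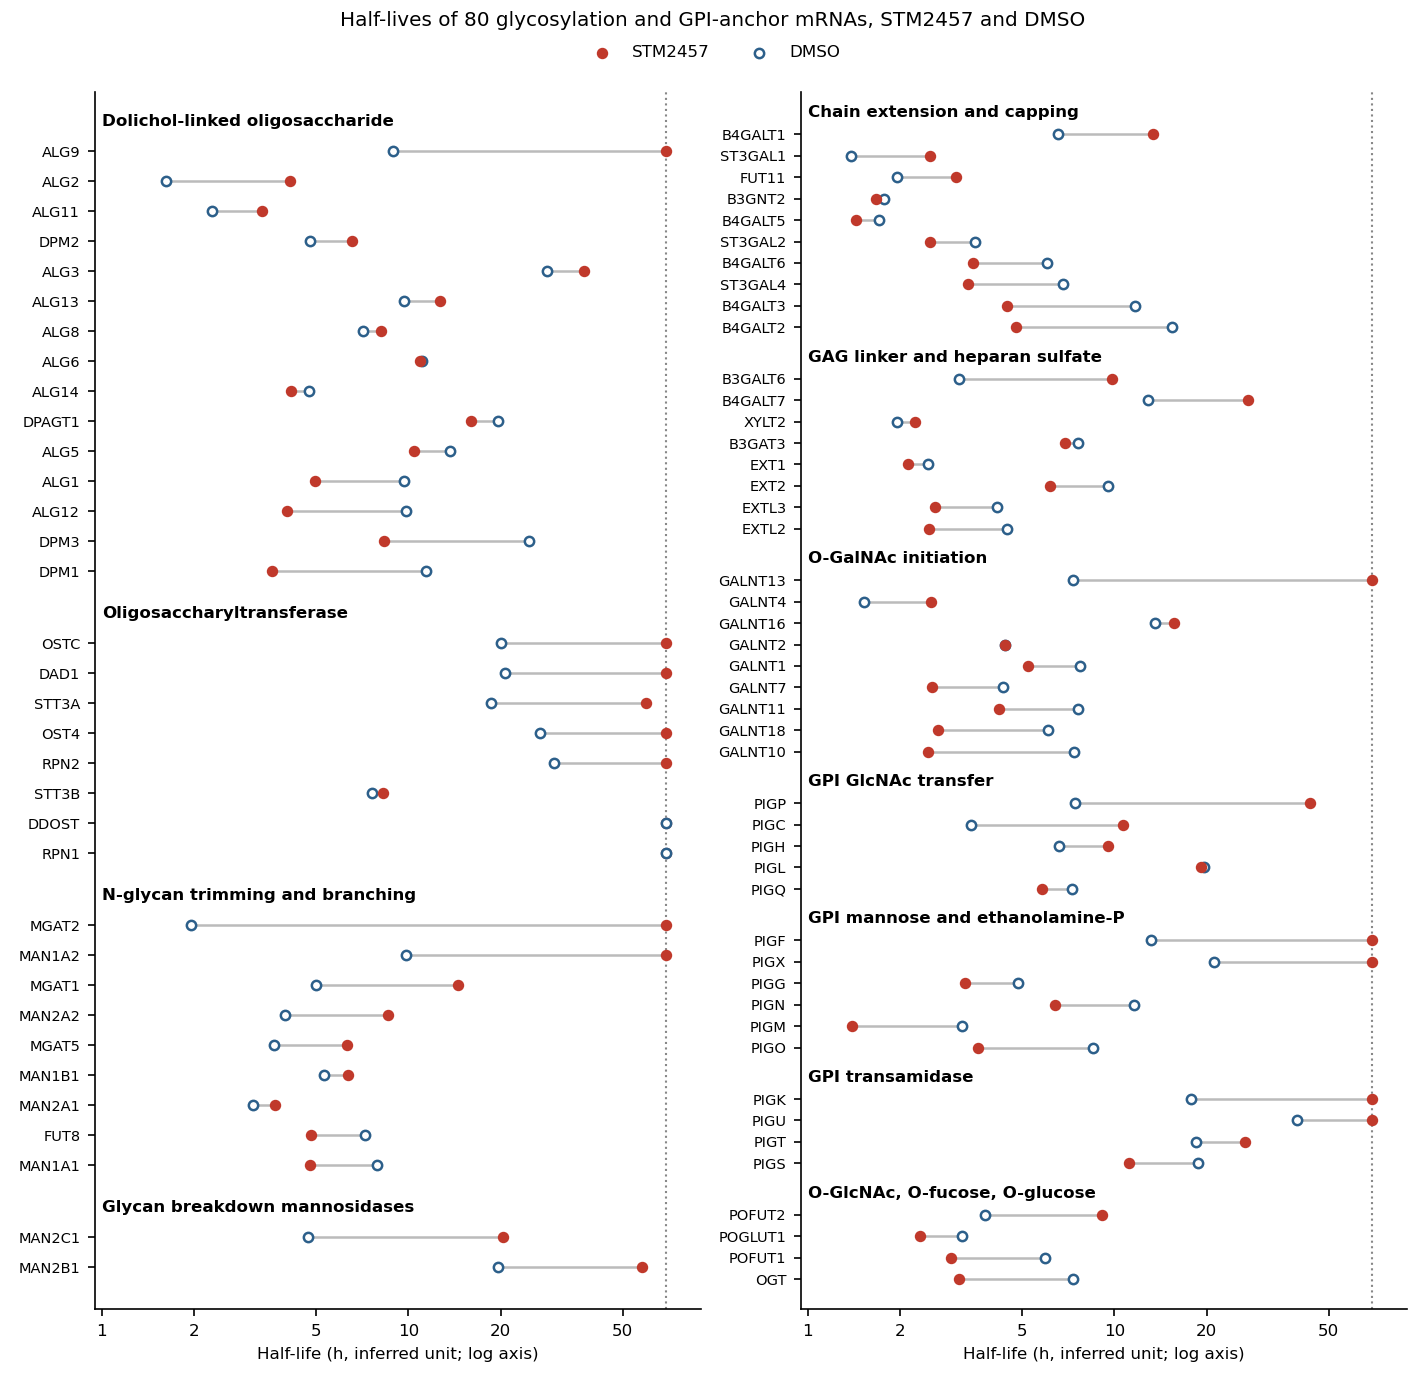
Fitted half-life in STM2457 (filled red) and in DMSO (open blue) of each of the 80 members, 1 value per gene and treatment, on a log axis in hours, in blocks by pathway step, with a dotted line at the ceiling of 69.3 h. The 14 members at the ceiling in STM2457 sit on that line, 6 of them OST subunits, of which DDOST and RPN1 are there in both treatments so that their points coincide.

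The oligosaccharyltransferase had the highest median half-life of the 11 steps in both treatments, and its subunits lay on the longer-lived side or within 1.5-fold. Of its 8 subunits, 5 were longer-lived in STM2457, 0 were shorter-lived and 3 lay within 1.5-fold; the log2 ratios had a median of 1.29. The median half-life was 69.3 h in STM2457 and 23.7 h in DMSO. OSTC, a small subunit found in complexes that work beside the translocon, had 69.3 h in STM2457 and 20.1 h in DMSO. DAD1, a subunit named for its defence against cell death, had 69.3 h in STM2457 and 20.7 h in DMSO. OST4, a very short membrane protein of the complex, had 69.3 h in STM2457 and 26.8 h in DMSO. RPN2, ribophorin II, had 69.3 h in STM2457 and 29.9 h in DMSO. Each of these 4 subunits was at the ceiling in STM2457 and below it in DMSO, so that their log2 ratios, from 1.21 to 1.79, were limited by the ceiling.

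The 2 catalytic subunits of the OST, which sit in separate complexes, differed. STT3A (GRCh38 chromosome 11, 125591712 to 125625215, plus strand), which glycosylates chains as they enter the ER, had a half-life of 59.6 h in STM2457 and 18.6 h in DMSO, a log2 ratio of 1.68. STT3B (chromosome 3, 31532638 to 31637622, plus strand), which can act after translation, had 8.25 h in STM2457 and 7.63 h in DMSO, a log2 ratio of 0.11. STT3A was the longer-lived of the pair in both treatments, and an exon of CHEK1 overlaps it on the same strand. DDOST and RPN1 were at 69.3 h in both treatments, so their log2 ratio of 0.00 cannot show a difference. Of the 4 accessory OST subunits outside the pattern of symbols, 2 were longer-lived and 0 were shorter-lived. The longer-lived ones were KRTCAP2, with 69.3 h in STM2457 and 14.7 h in DMSO, and MAGT1, with 63.6 h in STM2457 and 13.9 h in DMSO. TMEM258 had the lowest ratio of the 4, within 1.5-fold, with 25.9 h in STM2457 and 37.0 h in DMSO.

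Enzymes that assemble the lipid-linked tree mostly stayed within 1.5-fold. Of 15 members, 2 were longer-lived in STM2457, 4 were shorter-lived and 9 lay within 1.5-fold; the log2 ratios had a median of -0.02. Their median half-life was 8.13 h in STM2457 and 9.68 h in DMSO. The longer-lived pair were mannosyltransferases. ALG9, which works in the ER lumen, had 69.3 h in STM2457 and 8.91 h in DMSO, a log2 ratio of 2.96, and overlaps an exon of AP001781.2 on its own strand. ALG2, which adds mannose on the cytosolic side, had 4.13 h in STM2457 and 1.62 h in DMSO, a log2 ratio of 1.35.

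Subunits of the dolichol-phosphate-mannose synthase, which supplies mannose for both N-glycans and GPI anchors, had different ratios. The catalytic subunit DPM1 had 3.60 h in STM2457 and 11.4 h in DMSO, a log2 ratio of -1.67. DPM3, which tethers DPM1 to the membrane, had 8.36 h in STM2457 and 24.7 h in DMSO, a log2 ratio of -1.56. DPM2, a further membrane subunit, had 6.53 h in STM2457 and 4.80 h in DMSO, a log2 ratio of 0.45, within 1.5-fold. The other shorter-lived members of this step were mannosyltransferases. ALG12, which acts in the lumen, had 4.02 h in STM2457 and 9.87 h in DMSO, and ALG1, which adds the first mannose, had 4.96 h in STM2457 and 9.66 h in DMSO. Of the members within 1.5-fold, ALG3, a luminal mannosyltransferase, had 37.5 h in STM2457 and 28.4 h in DMSO, and ALG13, of the transferase of the second GlcNAc, had 12.7 h in STM2457 and 9.68 h in DMSO. DPAGT1, which starts the tree and is the target of tunicamycin, had 16.0 h in STM2457 and 19.7 h in DMSO. The remaining ALG members within 1.5-fold, ALG5, ALG6, ALG8, ALG11 and ALG14, had log2 ratios from -0.38 in ALG5 to 0.55 in ALG11.

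Genes for trimming and branching in the ER and Golgi held the member with the largest ratio. Of 9 members, 5 were longer-lived in STM2457, 1 was shorter-lived and 3 lay within 1.5-fold; the log2 ratios had a median of 0.79. The median half-life was 6.38 h in STM2457 and 5.01 h in DMSO. MGAT2 (chromosome 14, 49620795 to 49623481, plus strand), which adds the GlcNAc that turns a hybrid glycan into a complex one, had 69.3 h in STM2457 and 1.96 h in DMSO. Its log2 ratio of 5.15, or 35.5-fold, was the highest of the 80 members and rests on a value at the ceiling. MGAT1, which adds the GlcNAc that opens hybrid and complex glycan synthesis, had 14.5 h in STM2457 and 5.01 h in DMSO, a log2 ratio of 1.54.

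Both pairs of paralogous mannosidases in this step held a longer-lived member. MAN1A2, a Golgi mannosidase that trims the tree before branching, had 69.3 h in STM2457 and 9.82 h in DMSO, while its paralog MAN1A1 had 4.79 h in STM2457 and 7.90 h in DMSO. The paralogs thus fell on opposite sides of 1.5-fold, with log2 ratios of 2.82 for MAN1A2 and -0.72 for MAN1A1. Of the mannosidases that act after MGAT1, MAN2A2 had 8.59 h in STM2457 and 3.98 h in DMSO, and MAN2A1 had 3.68 h in STM2457 and 3.12 h in DMSO. MGAT5, which adds a further branch, had 6.33 h in STM2457 and 3.65 h in DMSO, and the ER mannosidase MAN1B1 had 6.38 h in STM2457 and 5.31 h in DMSO. FUT8, which adds the core fucose, had 4.82 h in STM2457 and 7.22 h in DMSO, just within 1.5-fold. Outside the building pathway, both measured breakdown mannosidases were longer-lived. The cytosolic MAN2C1 had 20.3 h in STM2457 and 4.71 h in DMSO, and the lysosomal MAN2B1, whose loss causes alpha-mannosidosis, had 57.9 h in STM2457 and 19.6 h in DMSO.

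Galactosyltransferases and other enzymes that extend and cap chains were split. Of 10 members, 3 were longer-lived in STM2457, 4 were shorter-lived and 3 lay within 1.5-fold; the log2 ratios had a median of -0.37. The median half-life was 3.19 h in STM2457 and 4.77 h in DMSO. B4GALT1, the main N-glycan galactosyltransferase and the catalytic part of lactose synthase, had 13.4 h in STM2457 and 6.53 h in DMSO. Its paralogs B4GALT2 and B4GALT3 lay on the other side: B4GALT2 had 4.79 h in STM2457 and 15.4 h in DMSO, and B4GALT3 had 4.46 h in STM2457 and 11.7 h in DMSO. B4GALT2 had the lowest log2 ratio of the 80 members, -1.69. Among sialyltransferases that cap galactose, ST3GAL1 had 2.51 h in STM2457 and 1.38 h in DMSO, while ST3GAL4 had 3.33 h in STM2457 and 6.80 h in DMSO. ST3GAL2 lay between them and within 1.5-fold, with a log2 ratio of -0.49. Of the galactosyltransferases that make lactosylceramide, B4GALT6 was shorter-lived, at 3.45 h in STM2457 and 6.03 h in DMSO, and B4GALT5 had 1.43 h in STM2457 and 1.71 h in DMSO. FUT11, listed in this step as one of the fucosyltransferase family, was longer-lived, at 3.05 h in STM2457 and 1.95 h in DMSO. Whether it acts on glycan chains or directly on proteins was not examined here.

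In the heparan sulfate pathway, the galactosyltransferases of the linker were longer-lived and the chain enzymes were shorter-lived or within 1.5-fold. Of 8 members, 2 were longer-lived in STM2457, 3 were shorter-lived and 3 lay within 1.5-fold; the log2 ratios had a median of -0.18 and a mean of 0.053. B3GALT6, which adds the second galactose of the linker, had 9.86 h in STM2457 and 3.11 h in DMSO. B4GALT7, which adds the first galactose, had 27.2 h in STM2457 and 12.8 h in DMSO. Of the chain polymerase, EXT1 had 2.13 h in STM2457 and 2.46 h in DMSO, and EXT2 had 6.15 h in STM2457 and 9.54 h in DMSO. EXTL3, which starts the heparan sulfate chain, had 2.59 h in STM2457 and 4.14 h in DMSO, and EXTL2, a related transferase, had 2.48 h in STM2457 and 4.47 h in DMSO. XYLT2, which attaches the xylose that starts the linker, had 2.23 h in STM2457 and 1.96 h in DMSO, and B3GAT3, which completes the linker with glucuronic acid, had 6.89 h in STM2457 and 7.61 h in DMSO, both within 1.5-fold.

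Transferases that start mucin-type chains by adding GalNAc had 4 shorter-lived members and 1 gene at the ceiling. Of 9 members, 2 were longer-lived in STM2457, 4 were shorter-lived and 3 lay within 1.5-fold; the log2 ratios had a median of -0.56. The median half-life was 4.19 h in STM2457 and 7.35 h in DMSO. GALNT13, an isoform best known from neural tissue, had 69.3 h in STM2457 and 7.35 h in DMSO, a log2 ratio of 3.24. GALNT4, a longer-lived member that prefers peptides already glycosylated, had 2.52 h in STM2457 and 1.53 h in DMSO, and shares exons with the readthrough gene POC1B-GALNT4. The lowest ratios were those of GALNT10, with 2.47 h in STM2457 and 7.36 h in DMSO, and GALNT18, with 2.67 h in STM2457 and 6.06 h in DMSO. GALNT2, a broadly expressed isoform, had 4.39 h in STM2457 and 4.40 h in DMSO, a log2 ratio of -0.00. GALNT7 and GALNT11 were shorter-lived too, with log2 ratios of -0.78 and -0.85, and GALNT1 and GALNT16 lay within 1.5-fold, at -0.56 and 0.21. The GALNT10 value may include reads of MFAP3, whose exons overlap it on the same strand.

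GPI-anchor genes lay on both sides of the limit. Of 15 members over 3 steps, 6 were longer-lived in STM2457, 4 were shorter-lived and 5 lay within 1.5-fold; the log2 ratios had a median of 0.53. The median half-life was 11.2 h in STM2457 and 11.6 h in DMSO. The complex that transfers the first GlcNAc to phosphatidylinositol had 0 shorter-lived members. Its subunit PIGP had 43.5 h in STM2457 and 7.45 h in DMSO, a log2 ratio of 2.54. PIGC, another membrane subunit, had 10.7 h in STM2457 and 3.41 h in DMSO, a log2 ratio of 1.65. PIGH and PIGQ, also of this complex, lay within 1.5-fold: PIGH had 9.54 h in STM2457 and 6.62 h in DMSO, and PIGQ had 5.81 h in STM2457 and 7.26 h in DMSO. PIGL, which then removes the acetyl group, had 19.1 h in STM2457 and 19.6 h in DMSO.

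In the step that adds mannose and ethanolamine phosphate, 2 enzymes and their partner subunits lay on opposite sides of 1.5-fold. PIGM (chromosome 1, 160024953 to 160031991, minus strand), which adds the first mannose, had 1.39 h in STM2457 and 3.19 h in DMSO, the shortest STM2457 half-life of the 80 members. Its stabilising partner PIGX had 69.3 h in STM2457 and 21.1 h in DMSO, a log2 ratio of 1.71 against -1.20 for PIGM. PIGO, which adds the ethanolamine phosphate that links anchor to protein, had 3.60 h in STM2457 and 8.50 h in DMSO. Its partner PIGF had 69.3 h in STM2457 and 13.1 h in DMSO, a log2 ratio of 2.40 against -1.24 for PIGO. PIGN, which adds another ethanolamine phosphate, had 6.41 h in STM2457 and 11.6 h in DMSO, and PIGG, which works with PIGF too, had 3.24 h in STM2457 and 4.86 h in DMSO. Over the 6 members of this step the median log2 ratio was -0.72 and the mean was 0.038, so its sign depends on the summary. Exons of NRROS overlap PIGX on the same strand.

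The 4 transamidase subunits among the members had long half-lives in both treatments. The transamidase cuts the protein and joins it to the anchor. PIGK, its catalytic subunit, had 69.3 h in STM2457 and 17.8 h in DMSO, a log2 ratio of 1.96. PIGU had 69.3 h in STM2457 and 39.5 h in DMSO, and an exon of NCOA6 overlaps it on the same strand. PIGT, a scaffolding subunit, had 26.7 h in STM2457 and 18.4 h in DMSO, within 1.5-fold. PIGS, the remaining measured subunit among the members, was shorter-lived, with 11.2 h in STM2457 and 18.7 h in DMSO. The median log2 ratio of the 4 was 0.67. Without the genes at the ceiling only PIGT and PIGS remain, with a median of -0.10. The sign of the median of these 4 members therefore rests on 2 subunits at the ceiling. GPAA1, a transamidase subunit outside the pattern of symbols, is not in that median. It was longer-lived and below the ceiling, with 29.9 h in STM2457 and 7.91 h in DMSO, a log2 ratio of 1.92.

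Of the 4 enzymes that put single sugars on nuclear, cytosolic or repeat-containing proteins, 1 was longer-lived and 2 were shorter-lived in STM2457. POFUT2, which fucosylates thrombospondin repeats, had 9.08 h in STM2457 and 3.78 h in DMSO, a log2 ratio of 1.26. POFUT1, which fucosylates EGF repeats such as those of Notch, had 2.93 h in STM2457 and 5.94 h in DMSO, a log2 ratio of -1.02. OGT, the only transferase of O-linked GlcNAc in the nucleus and cytosol, had 3.11 h in STM2457 and 7.35 h in DMSO, a log2 ratio of -1.24. POGLUT1, which adds glucose to EGF repeats, had 2.33 h in STM2457 and 3.19 h in DMSO, within 1.5-fold.

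**Figure D2:**
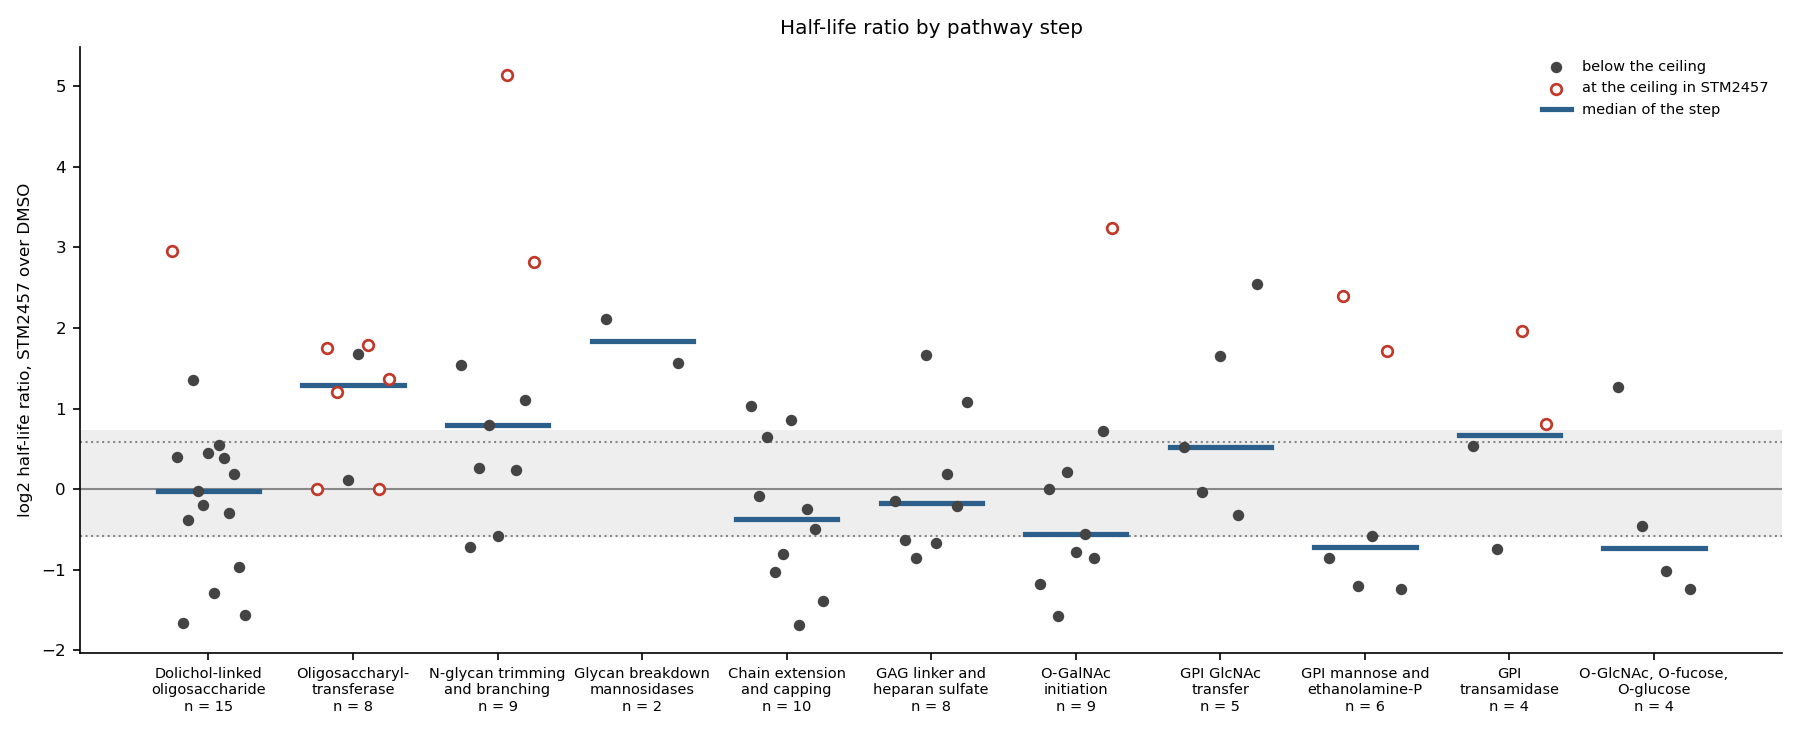
Log2 half-life ratio, STM2457 over DMSO (vertical axis), of each member in 11 columns by pathway step, with blue bars at the medians, open red circles at the ceiling in STM2457, dotted lines at 1.5-fold and grey shading between the quartiles of all genes. OST subunits lie at 0 or above with a median of 1.29. The columns of O-GalNAc, of GPI mannose and ethanolamine phosphate, and of O-GlcNAc, O-fucose and O-glucose have medians of -0.56, -0.72 and -0.74.

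The order of the steps by half-life was similar in the 2 treatments at the top and less so below it. OST subunits had a median percentile among all genes of 94.6 in STM2457 and 91.9 in DMSO, and transamidase subunits 89.9 in STM2457 and 88.7 in DMSO. The step of GPI mannose and ethanolamine phosphate had 44.2 in STM2457 and 73.0 in DMSO. The GalNAc transferases had 37.6 in STM2457 and 61.9 in DMSO. The trimming and branching step had 57.3 in STM2457 and 45.1 in DMSO. The 38 members of the ER membrane steps (tree assembly, OST and GPI synthesis and attachment) had a median half-life of 11.1 h in STM2457 and 11.5 h in DMSO, and the other 42 had 4.42 h in STM2457 and 5.16 h in DMSO. Steps were compared by description only, since neighbouring medians rest on 2 to 15 genes each.

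Because long-lived genes approach the ceiling, members were also set beside all genes of like DMSO half-life. Among members with a DMSO half-life of 16 to 32 h, 8 of 14 were longer-lived in STM2457, and 2 were shorter-lived. All genes in that range had 37.1% longer-lived and 40.4% shorter-lived. The median STM2457 half-life was 58.8 h for these members and 18.4 h for all genes of the range. The 8 longer-lived members here are OSTC, DAD1, STT3A, OST4, RPN2, MAN2B1, PIGX and PIGK, the shorter-lived ones are DPM3 and PIGS, and ALG3, DPAGT1, PIGL and PIGT lie within 1.5-fold. Among members with a DMSO half-life of 8 to 16 h, 4 of 16 were longer-lived and 8 were shorter-lived, beside 20.6% and 43.9% of all genes in that range. Between 4 and 8 h in DMSO, which holds the most members, 5 of 28 were longer-lived and 11 were shorter-lived, beside 21.1% and 27.3% of all genes. Between 2 and 4 h, 5 of 11 were longer-lived and 1 was shorter-lived, beside 36.1% and 10.2% of all genes. At 32 h or more, 1 of 3 was longer-lived and 0 were shorter-lived, beside 15.1% and 27% of all genes. Below 2 h in DMSO, 5 of 8 members were longer-lived and 0 were shorter-lived, beside 43.5% and 4.32% of all genes.

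The fits also give a synthesis rate, whose unit the headers do not name, and half-life and synthesis of a gene come from the same fit. The median log2 ratio of synthesis rates was 0.00 over the members, with 15 of them, or 18.8%, past 1.5-fold upward in STM2457, against a background of 12.6% of all genes, and 14, or 17.5%, past it downward, against a background of 13.3%. The OST subunits had a median of 0.60 on this scale, led by DDOST at 1.51, OST4 at 1.22 and RPN2 at 1.11. PIGL had the highest synthesis ratio of the members, 2.39, with a half-life ratio of -0.04. DPM3 had a synthesis ratio of 1.49 with a half-life ratio of -1.56. EXTL3 had the lowest, -1.10, and MGAT2 had -0.74.

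Synthesis rate times half-life gives the steady-state abundance that a fit implies. The cells had the compound for at most 6 h, 3 h before the label and up to 180 min with it. The most that abundance can gain in that time, starting from the DMSO steady state, is 6 h of synthesis without decay at the higher of the 2 fitted rates, and this gave a bound for each gene. The implied abundance passed this bound in 27 of the 80 members, or 33.8%, against a background of 21.9% of all genes. MGAT2 was among them, with an implied abundance 21.3-fold above DMSO, where the bound was 3.13-fold. The 27 included 7 of 8 OST subunits, 3 of 4 transamidase subunits, both breakdown mannosidases, and ALG9, ALG3, ALG13, MGAT1, MAN1A2, MAN2A2, B4GALT1, B4GALT7, GALNT13, PIGP, PIGH, PIGL, PIGF and PIGX. For these members the implied abundance in STM2457 could not be reached within the exposure at the fitted rates. For a given synthesis ratio the bound is lower the longer the DMSO half-life, so long-lived genes pass it more readily. At 32 h or more in DMSO, 364 of 477 of all genes and 3 of 3 members passed it. Below 2 h, 84 of 1112 of all genes and 1 of 8 members did. Between 16 and 32 h, 11 of 14 members passed it, a larger share than that of all genes in that range.

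**Figure D3:**
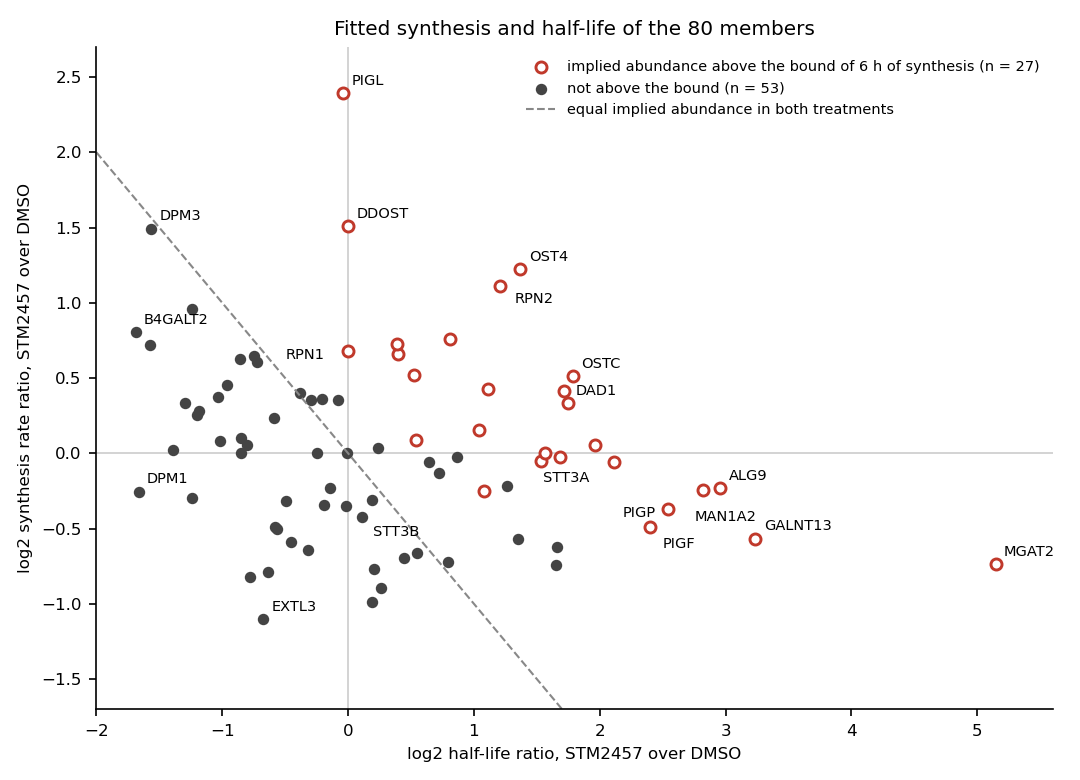
Log2 ratio of synthesis rates (vertical axis) against log2 ratio of half-lives (horizontal axis), both STM2457 over DMSO, of the 80 members, with open red circles for the 27 past the bound and a dashed line of equal implied abundance. All OST subunits but STT3B are past the bound, and MGAT2 lies farthest right at 5.15 with a synthesis ratio of -0.74.

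Coding structure was close to that of all genes. GENCODE release 29 gave a coding sequence for all 80 members, with a median length of 1428 nt against 1383 nt over all genes, and a median of 10 coding exons against 9. At least 1 far DRACH motif was present in 77.5% of members and in 74.5% of all genes, and the median number was 2.5 in members and 3 in all genes. The motif was searched on the mRNA strand only, and a match does not show methylation.

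The longer-lived share of all genes differed with the number of far motifs, while the order among the members changed with how motifs were counted. Of the 16 members with 10 or more far motifs, 6 were longer-lived in STM2457 and 4 were shorter-lived, with a median log2 ratio of 0.05, beside 45.8% and 10.6% of all genes of that class, with a median of 0.48. Of the 18 members with 0 far motifs, 8 were longer-lived and 2 were shorter-lived, with a median of 0.38, beside 22% and 32.9% of all genes with 0, with a median of -0.22. The members with 0 had a median half-life of 18.2 h in STM2457 and 10.2 h in DMSO. Those with 10 or more had 3.15 h in STM2457 and 2.83 h in DMSO. In STM2457, 7 of the 18 members with 0 and 1 of the 16 with 10 or more were at the ceiling. Over all genes these counts were 365 of 2200 and 199 of 2161. ALG9 and GALNT13 had 0 far motifs, and EXTL3 had the most of any member, 39. A count of 0 does not mean that an mRNA lacks DRACH motifs. At any distance from a junction, ALG9 had 31 coding motifs and GALNT13 had 38. In the 3′ untranslated region, which these classes leave out, ALG9 had 6 motifs at least 100 nt from a junction and GALNT13 had 17. PIGM, with 21 far motifs, and PIGO, with 17, were shorter-lived, while MGAT2, with 35, ALG2, with 22, and MGAT1, with 17, were longer-lived. The median with 10 or more minus the median with 0 was -0.33 in members and 0.69 in all genes. In members it was -1.38 with a distance of 50 nt, 0.44 with 200 nt, 0.16 by motifs per kilobase and 0.32 with 4 or more GGACH motifs, a choice made after seeing the data, and all genes had 0.10, 0.80, 0.78 and 0.72 under the same settings. Whether the members' order differs from that of all genes was not tested.

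Of the members, 9 were coded by 1 exon: OST4, DPM3, B3GALT6, PIGC, MGAT1, PIGM, B3GNT2, MGAT2 and GALNT4. Of these, 6 were longer-lived in STM2457 and 2 were shorter-lived, with a log2 ratio of 1.37 at the median, beside 52.9% longer-lived, 14% shorter-lived and a median of 0.67 over all 350 genes coded by 1 exon. The shorter-lived pair were PIGM and DPM3. B3GNT2, which makes poly-N-acetyllactosamine, had 1.67 h in STM2457 and 1.77 h in DMSO, with 27 far motifs. Among the 6 of them with 10 or more far motifs, 4 were longer-lived and 1 was shorter-lived, beside 64.8% and 6.94% of all genes of that kind.

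**Figure D4:**
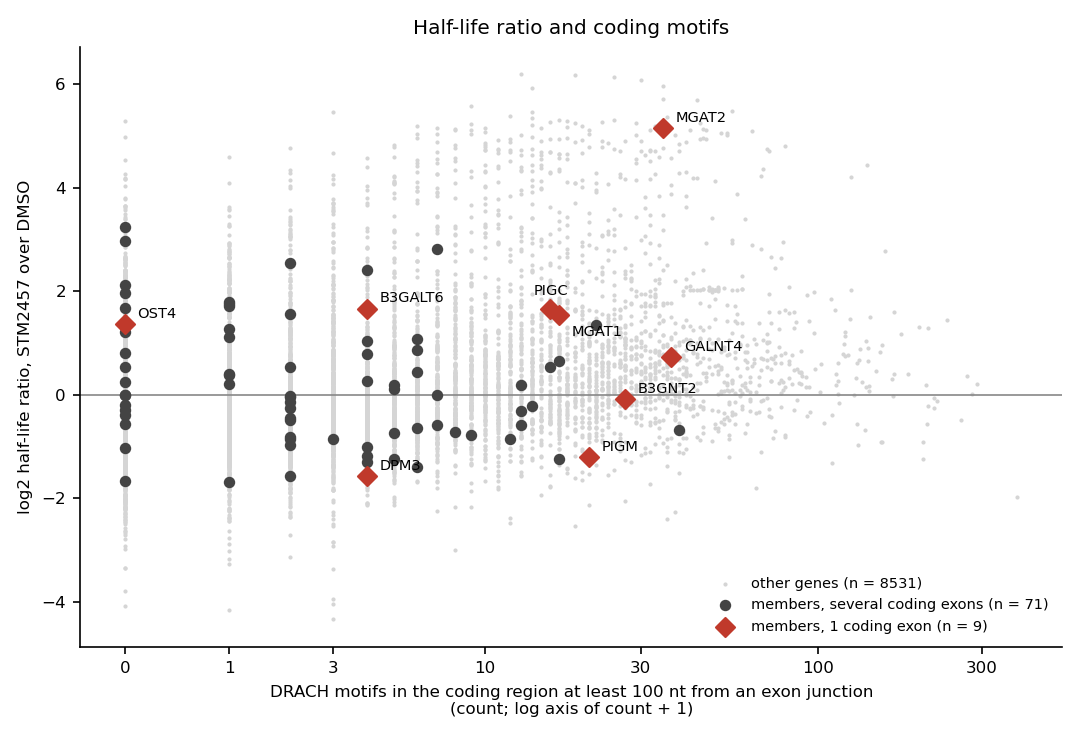
Log2 half-life ratio, STM2457 over DMSO (vertical axis), against the number of far coding DRACH motifs (horizontal axis, log scale of the count plus 1), for members coded by 1 exon (red diamonds), members with several coding exons (dark points) and the other genes (light points). MGAT2 with 35 far coding motifs lies at 5.15 and PIGM with 21 at -1.20, while members with 0 reach 3.24 in GALNT13. Coding motifs nearer to a junction and motifs outside the coding region are not counted on this axis.

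An exon of another gene overlaps 13 members on the same strand, so some of their reads may come from that gene. The libraries were made with a 3′ mRNA kit, and whether the overlap lies at the 3′ end was not checked. Of the 13, 6 were longer-lived, beside 35% of all members and 28.5% of all genes. The share among all genes with such an overlap was not worked out. These 13 are ALG9, ALG11, ALG1, STT3A, DDOST, MAN2B1, GALNT4, GALNT16, GALNT10, PIGQ, PIGX, PIGU and POFUT1. In POFUT1 the overlapping gene is the microRNA gene MIR1825. Annotated pseudogenes exist for 14 members, OSTC with 6, PIGF with 3 and PIGP with 3 among them, and reads that fit both copies cannot be told apart in the values used here.

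Other glycosylation genes, in 8 lists written by function with 139 symbols of which 99 were measured, lay on both sides as well. Of the 99, 31 were longer-lived in STM2457 and 28 were shorter-lived, with a median log2 ratio of -0.03. These shares, 31.3% and 28.3%, were close to the 28.5% and 24.9% of all genes. In STM2457, 8 of the 99 were at the ceiling, beside 10.9% of all genes. The implied abundance of 21 passed the bound, beside 21.9% of all genes. All 4 accessory OST subunits are among these 21, as are GLCE, C1GALT1, PGAP2, PRKCSH, POMGNT2, SLC35C1, UXS1, DOLK and DHDDS. An exon of another gene overlaps TMEM258, KRTCAP2, TMEM8A, GMPPB and PMM2 on the same strand. Enzymes that modify proteoglycan chains had 7 longer-lived and 6 shorter-lived of 19, with GLCE, which epimerises heparan sulfate, at 69.3 h in STM2457 and 2.32 h in DMSO, and CHPF, a chondroitin polymerising factor, at 3.36 h in STM2457 and 9.85 h in DMSO. Among other O-glycan enzymes, 2 of 9 were longer-lived and 4 were shorter-lived. C1GALT1, which extends GalNAc with galactose, had 69.3 h in STM2457 and 1.89 h in DMSO, and its chaperone C1GALT1C1 had 3.95 h in STM2457 and 12.3 h in DMSO, the extremes of that list. Among GPI genes outside the pattern, 3 of 7 were longer-lived and 1 was shorter-lived, with PGAP2, which remodels the anchor lipid, at 56.7 h in STM2457 and 9.54 h in DMSO, and TMEM8A at 5.72 h in STM2457 and 12.1 h in DMSO.

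The remaining lists held genes of both directions. ER trimming and quality control genes had 2 longer-lived and 3 shorter-lived of 13, from PRKCSH, the glucosidase II beta subunit, at 54.8 h in STM2457 and 14.6 h in DMSO, to EDEM2 at 6.55 h in STM2457 and 16.8 h in DMSO. O-mannose enzymes had 4 in each direction of 12, from POMGNT2 at 32.0 h in STM2457 and 3.48 h in DMSO to TMTC1 at 1.75 h in STM2457 and 5.54 h in DMSO. Nucleotide sugar transporters had 3 longer-lived and 1 shorter-lived of 11, from SLC35C1, which carries GDP-fucose, at 69.3 h in STM2457 and 3.47 h in DMSO, to SLC35A4 at 3.74 h in STM2457 and 6.08 h in DMSO.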

How the data were processed

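SLAM-seq libraries of HEK293T total RNA were made with a 3′ mRNA kit, per the labels' protocols; the submitters' processing notes name FastQC 0.11.9, STAR 2.7.8a and the build GRCh38.p12. Neither the kinetics tool nor its annotation nor the libraries behind each fit are stated (not given in the sources used here). For every gene the authors deposited 1 fitted half-life, 1 synthesis rate and their log2 ratios for each treatment; recomputed log2 ratios differed from the deposited ones by at most 1.27e-14. For 1 library, not matched to any sample here, less RNA went in, per the labels. There are no counts, so depth is unknown and no interval is given. Which group a value belongs to follows from the column names, STM2457 or DMSO, and samples were not tested. The rule for the members reads gene symbols alone, but the members and lists were chosen with earlier results of these data known.

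Named in the text are the 2 highest and 2 lowest ratios of each pathway step, all members of steps of 5 or fewer, all OST, GPI-GlcNAc transferase and transamidase subunits, members at the ceiling or past the bound, the paralog pairs, those next to 1.5-fold, and the extremes of each other list; others are named as examples. Motifs and coordinates came from GENCODE release 29, where 8982 of 8996 identifiers matched, using the longest complete coding sequence. Values within 1e-06 of 69.3 h counted as at the ceiling. Alternatives were a 2-fold limit, half-lives of 0.5 to 24 h, sets without ceiling or overlapping genes, means, centring, and other motif definitions, of which GGACH with 4 or more was added after seeing the data. Scripts ran in Python 3.11.15 with pandas 2.3.3, NumPy 2.4.6, Matplotlib 3.10.9 and SciPy 1.17.1, and were tested on simulated data. Some motif sites are not reported here.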

Additional observations from a re-analysis of the deposited data

How the results depend on the processing

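Of 132 alternative values, 113 lay within the interval of their median or within 1.5 times their count, and 16 did not. The other 3 had the opposite sign to a median past 1.5-fold and were counted apart. For sets of 8 genes or fewer, that interval was the whole range of their values. A subset median or a mean of such a set cannot fall outside it, so these alternatives do not show stability. In 20 of the 132 the sign was opposite to that of the reported value, 10 of these for the members and their steps, 9 for the other glycosylation genes and 1 for all genes. The members' median of 0.06 became -0.25 between 0.5 and 24 h and -0.17 without ceiling genes, with a mean of 0.30. Their motif difference of -0.33 became 0.44, 0.16 and 0.32 with 200 nt, per kilobase and with 4 or more GGACH motifs. The linker and heparan sulfate step had a mean of 0.053 against a median of -0.18. Longer-lived members numbered 12 of 59 where both values lay in the range of 0.5 to 24 h and 16 of 66 without genes at the ceiling. They numbered 18 of 49 without genes whose span overlaps another gene on the same strand, against 28 of 80. The span overlaps in 31 members, a wider filter than the 13 with an overlapping exon. These sets hold fewer genes by construction. The shares of all genes were 20.3%, 22.8% and 29%, beside 20.3%, 24.2% and 36.7% of members. Shorter-lived members numbered 12 at a 2-fold limit and 13 of 49 without genes of overlapping span, against 22. These were 15% and 26.5% of members, beside 11.3% and 24.8% of all genes. Longer-lived members numbered 23 at the 2-fold limit, or 28.8%, beside 19.7% of all genes. Members past the bound numbered 7 of 59 in the range of 0.5 to 24 h, against 27. The share of all genes past the bound in that range was not worked out. The step of GPI mannose and ethanolamine phosphate had a mean log2 ratio of 0.038 against a median of -0.72. The transamidase median was -0.75 in the range of 0.5 to 24 h, where 1 gene remains, and -0.10 without ceiling genes, against 0.67. The other glycosylation genes had a mean of 0.30 against a median of -0.03. The cause of the differences between mean and median was not tested. GGACH motifs with 10 or more gave no value for the members, since 1 member has that many. No paired analysis was possible because the table holds 1 value per gene and treatment and no replicate columns. Depth is unknown, so no limit from it can be given.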

Other observations

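Genes that supply dolichol and sugar donors lay on both sides of 1.5-fold, with 8 of 24 longer-lived in STM2457, 9 shorter-lived and a median log2 ratio of -0.26. The extremes were UXS1, which makes UDP-xylose for the proteoglycan linker, at 69.3 h in STM2457 and 6.36 h in DMSO, and GMPPA, which regulates GDP-mannose synthesis, at 3.45 h in STM2457 and 24.8 h in DMSO. The genes that follow were chosen after their values were seen. DOLK, the dolichol kinase, had 20.3 h in STM2457 and 2.84 h in DMSO, and DHDDS, which makes the dolichol chain, had 19.7 h in STM2457 and 4.72 h in DMSO. PMM2, the phosphomannomutase whose loss is the commonest congenital disorder of glycosylation, had 11.9 h in STM2457 and 3.51 h in DMSO. SRD5A3, which acts late in dolichol synthesis, had 3.99 h in STM2457 and 13.1 h in DMSO. GMPPB, which makes GDP-mannose, had 2.65 h in STM2457 and 8.08 h in DMSO.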
